A study of Drosophila melanogaster with 4 samples.

Results

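The 10 genes described here are 4 Turandot peptide genes, TotA, TotC, TotM and TotX, and 6 genes of the JAK/STAT pathway, upd2, upd3, dome, hop, Stat92E and Socs36E. They were chosen by name, as stress peptides set against the ligands, receptor, kinase, factor and feedback gene of one pathway, and all 10 were found among the 17628 gene identifiers of the deposited count table. Poly-A RNA was sequenced from whole adult Drosophila melanogaster of the Oregon strain, a standard wild-type laboratory stock, at 5 days of age. There were 2 libraries from flies on food with glucose and 2 from flies on food with galactose, with no other allele or agent named. The labels give no sex, no number of flies per library and no statement on whether the pair of libraries of each sugar had separate cultures as their source. The p-values below thus reflect library-to-library spread alone, part or all of which could be technical.

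Turandot genes encode small secreted peptides, made mainly in the fat body, that accumulate in the hemolymph after infection, heat and other stress. In JAK/STAT signalling an Unpaired cytokine binds the receptor Domeless, the kinase Hopscotch phosphorylates the factor Stat92E, and Stat92E enters the nucleus and activates genes that include its own inhibitor Socs36E. In the adult fly the pathway is known for stress and immune responses of the fat body and blood cells, for renewal of the gut lining and for follicle cell patterning in the ovary. TotA is a known fat body target of it, with further input from stress MAP kinases and from the Imd factor Relish.

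Total counts lay between 21147212 and 25497099 per library, and levels are given as TMM-normalized CPM, the counts scaled to a common library total. Transcripts of both sexes were present, since 9 male accessory gland, testis and dosage compensation markers summed to between 712 and 1339 CPM and 9 ovary and yolk markers to between 21391 and 26379 CPM in each library. Of 12529 genes that entered edgeR's quasi-likelihood test, 0 (0.00%) had a Benjamini-Hochberg adjusted p under 0.05 and 1033 (8.24%) an unadjusted p under 0.05, and limma-voom also called 0. DESeq2 called 88 of the 12844 genes to which it gave an adjusted p (0.685%). All 10 members passed the filter on low counts, and 0 of them were called by either tool. By edgeR 1 of the 10, Socs36E, had an unadjusted p under 0.05. The unadjusted DESeq2 p was 0.0127 for TotM, 0.0142 for TotC, 0.0320 for TotA and 0.0340 for Socs36E. For the other members it lay between 0.136 (Stat92E) and 0.938 (dome). The share of all genes with an unadjusted DESeq2 p under 0.05 was not counted. No diet difference of a member below passed the main test, and each is given as a value with its error.

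The Turandot genes had lower means on galactose than on glucose, and the 6 JAK/STAT genes did not move one way. The median log2 fold change, galactose over glucose, was -1.27 over the 4 Turandot members and -0.21 over the 6 JAK/STAT members, beside a median of -0.04 over all genes tested. Of the 10 members 7 had a negative log2 fold change, beside 53.1% of all genes tested. The diets did not overlap for 5 members. TotC, TotM, upd2 and Socs36E, 4 of the 10, were lower in each galactose library than in either glucose library, as were 23.4% of all genes tested, and Stat92E was higher, as were 18.8% of all genes tested.

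**Figure D1:**
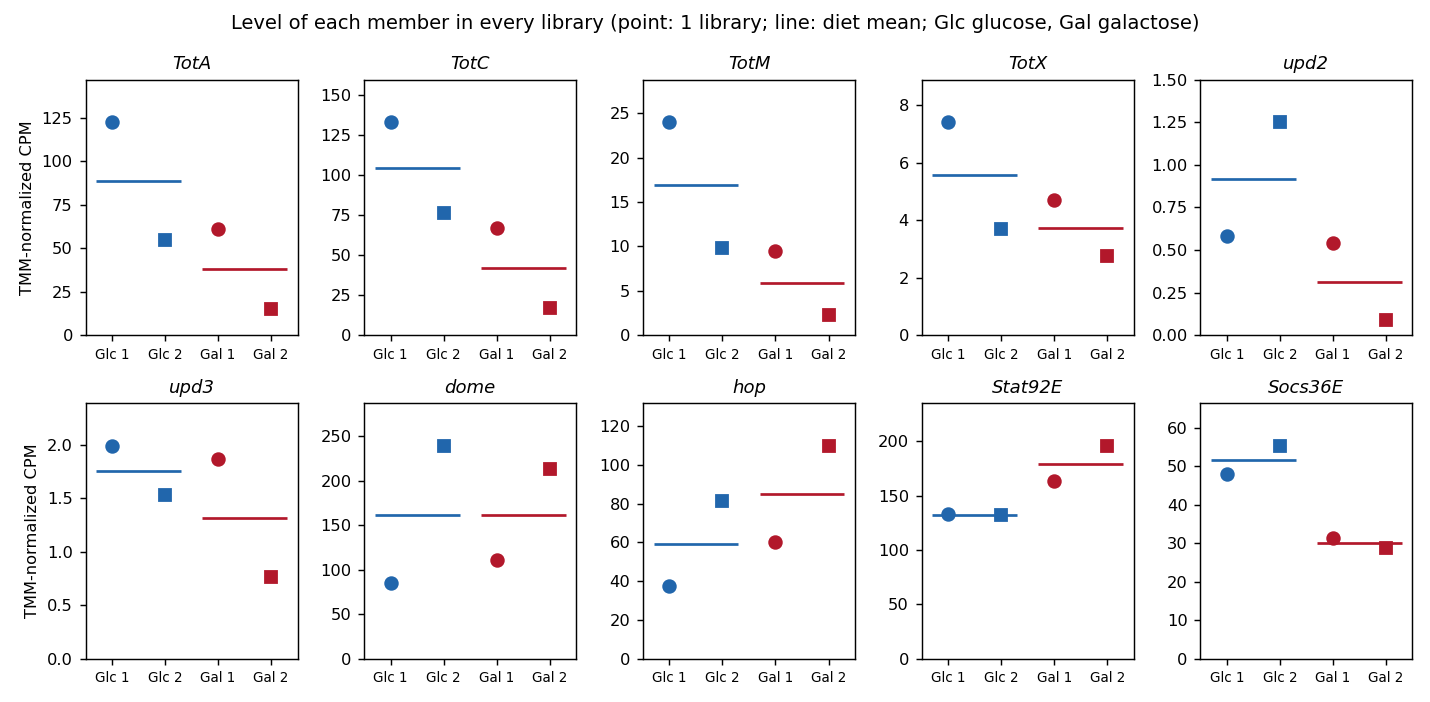
TMM-normalized CPM (vertical axes, each from 0 and with its own scale) of the 10 members in the 4 libraries (horizontal axes, Glc glucose and Gal galactose with the replicate number); a point is 1 library and a line the mean of a diet. TotA, TotC, TotM and TotX are highest in glucose replicate 1 and lowest in galactose replicate 2, and dome and hop are higher in replicate 2 of each diet. TotC, TotM, upd2, Socs36E and Stat92E do not overlap between diets.

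TotA and TotC were the abundant Turandot transcripts. TotA (FBgn0028396, chromosome 3R, 20871036 to 20871700 of BDGP6.54) had 3140 and 1181 counts in glucose replicates 1 and 2 and 1469 and 337 counts in galactose replicates 1 and 2, or 122, 54.7, 61.0 and 15.1 CPM. Galactose replicate 1 thus lay above glucose replicate 2, and the diets overlapped. The mean was 88.5 ± 47.8 CPM (SD, n = 2) with glucose against 38.1 ± 32.4 with galactose. The log2 fold change of TotA was -1.22 ± 0.66 (SE), with an edgeR Benjamini-Hochberg adjusted p of 0.633. In whole flies, fewer cells of a type and less RNA per cell cannot be told apart.

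TotC (FBgn0044812, 3R, 20872988 to 20873580), the neighbour of TotA, was at 133, 76.1, 66.5 and 16.8 CPM in the same order of libraries. Its 2 diets did not overlap, but the nearest libraries of the 2 diets, glucose replicate 2 and galactose replicate 1, were closer to each other than either was to the other library of its own diet. Its log2 fold change was -1.32 ± 0.62 (SE), with an edgeR adjusted p of 0.615. TotM (FBgn0031701, 2L, 5329857 to 5330464), a Turandot gene on another chromosome, was at 24.0, 9.82, 9.51 and 2.25 CPM. Its values kept the same order, with 212 and 229 counts in the 2 nearest libraries. The means of TotM were 16.9 ± 10.03 CPM (SD, n = 2) and 5.88 ± 5.13, a log2 fold change of -1.52 ± 0.71 (SE) and an edgeR adjusted p of 0.615.

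TotX (FBgn0044810, 3R, 20904917 to 20905518), the most distant of the 3R cluster, had the narrowest range of the 4. It was at 7.40 and 3.71 CPM on glucose and 4.69 and 2.74 on galactose. The diets overlapped, and its log2 fold change was -0.58 ± 0.49 (SE), with an edgeR adjusted p of 0.735. Its highest library was 2.70-fold above its lowest, where the same ratio was 8.08 for TotA, 7.89 for TotC and 10.7 for TotM.

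TotA, TotC and TotM kept close proportions to each other while their sum differed severalfold between libraries. The summed level of the 4 Turandot genes was 286 and 144 CPM on glucose and 141.7 and 36.9 on galactose. The ratio of TotC to TotA counts lay between 1.08 and 1.39 over the 4 libraries, and the ratio of TotA to TotM counts between 5.10 and 6.74. The ratio of TotA to TotX counts was 16.5, 14.8, 13.0 and 5.52 in the order of libraries above, so TotX took a larger part of the Turandot counts where the sum was lowest. The difference between libraries of the same diet was of the size of that between diets. TotA differed 2.24-fold between the 2 glucose libraries and 4.03-fold between the 2 galactose libraries, where the diet means differed 2.33-fold.

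TotX differed from the pair of abundant genes in position and exon structure, and TotM in position. Of the 8 Turandot genes of the annotation, 5 lie on 3R within 34483 bases, in the order TotA, TotC, TotB, TotZ and TotX. TotA and TotC lie on the plus strand with 1287 bases between them and no gene starting in that gap, while TotX lies on the minus strand, 26553 bases beyond TotZ, with 7 other genes starting between. TotX is annotated with 1 exon, and TotA, TotC and TotM with 2. TotM, TotE and TotF are on 2L. None of the exonic bases of the 10 members are shared with another annotated gene. Reads that could align to more than one Turandot copy were not examined.

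The other 4 Turandot genes were close to undetected, and did not pass the filter on low counts. TotB, which lies 357 bases beyond TotC, had 4, 5, 0 and 1 counts in the 4 libraries in the same order. TotE had 1 count, in galactose replicate 2, TotZ 1 count, in galactose replicate 1, and TotF 1 count in each glucose library. The abundant pair TotA and TotC and the near-silent TotB are thus consecutive genes of one cluster. Per kilobase of exon, the mean level on glucose was 197 CPM for TotC, 153 for TotA, 30.6 for TotM and 9.23 for TotX. On galactose it was 78.6, 65.7, 10.6 and 6.17. TotC was above TotA in each of the 4 libraries, by less than the spread of either gene between libraries.

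The JAK/STAT cytokines were the least abundant members. Upd2, made by the fat body as a signal of the fed state, was encoded by transcripts (upd2, FBgn0030904, X, 18240654 to 18243284) with 15 and 27 counts on glucose and 13 and 2 on galactose. The exact Poisson 95% intervals, which cover counting error only, were 8.40 to 24.7 for the 15 counts of glucose replicate 1 and 6.92 to 22.2 for the 13 counts of galactose replicate 1. The 2 diets did not overlap for upd2, yet these nearest libraries differed by less than counting error. The log2 fold change of upd2 was -1.50 ± 0.83 (SE), with an edgeR adjusted p of 0.639. The 2 counts of galactose replicate 2 have an interval of 0.242 to 7.22. The log2 fold change of upd2 was -0.75 without that library, -3.34 without galactose replicate 1, -1.95 without glucose replicate 1 and -0.85 without glucose replicate 2.

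Upd3 is the cytokine released by blood cells and by damaged gut cells. Its gene (upd3, FBgn0053542, X, 18277233 to 18284596) had 51 and 33 counts on glucose and 45 and 17 on galactose, or 1.99, 1.53, 1.87 and 0.764 CPM. The diets overlapped, and galactose replicate 2 was the low library. The log2 fold change was -0.41 ± 0.55 (SE), with an edgeR adjusted p of 0.822. The founding ligand upd1, not one of the 10 but the remaining gene of the family, also on X, was at 3.47, 2.92, 3.45 and 3.55 CPM, with a log2 fold change of 0.13 ± 0.38. Per kilobase of exon the mean level on glucose was 0.791 CPM for upd3 and 0.463 for upd2, where dome, their receptor, was at 33.2.

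The receptor and kinase genes were both higher in replicate 2 of each diet, and hop also had the higher galactose value at each replicate number. Dome (FBgn0043903, X, 19676061 to 19683518) was at 84.7 and 239 CPM in the glucose libraries and 111 and 213 CPM in the galactose libraries. Replicate 2 was the higher library on both diets, and the 2 diet means were 162 CPM each, with a log2 fold change of 0.00073 ± 0.52 (SE) and an edgeR adjusted p of 0.9998. The kinase gene hop (FBgn0004864, X, 11360930 to 11368098) was at 37.4, 81.4, 60.4 and 109.8 CPM, so the diets overlapped, while each galactose library lay above the glucose library of the same number. Its log2 fold change was 0.52 ± 0.45 (SE), with an edgeR adjusted p of 0.739. That value of hop was near 0 when galactose replicate 2 (0.027) or glucose replicate 1 (0.063) was left out, and larger when galactose replicate 1 (0.82) or glucose replicate 2 (1.19) was. Compared by number, TotA, TotC, TotM, TotX, upd2, upd3 and Socs36E were lower on galactose each time, Stat92E was higher and dome was mixed. Whether same-numbered libraries are pairs is not known. The share of all genes with the same sign at each number was not counted.

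The ovary markers osk and bcd had the same order of libraries as hop. Of the 9 matched ovary markers, 4 (osk, nanos, grk and bcd) were higher in replicate 2 of both diets and 1 (Vm26Aa) was lower in both. The other 4 (the yolk protein genes Yp1, Yp2 and Yp3 and the chorion gene Cp36) differed in sign between the diets. How many of all genes were higher in replicate 2 of both diets was not counted. The oocyte RNA oskar (osk) was at 138, 630, 316 and 836 CPM, and bicoid (bcd) at 13.9, 66.6, 28.6 and 113 CPM, and both were chosen after their values were seen. The whole list, with 9 of 10 markers matched and none at 0 in every library, summed to 24216 and 26379 CPM on glucose. On galactose it summed to 21858 and 21391 CPM, not higher in replicate 2. Yp2 (8950, 10737, 7861 and 7492 CPM) and Yp3 (7716, 8870, 6846 and 6289 CPM) made up most of that sum in each library. The sum thus says little about the other markers. The part of ovary content in the levels of dome and hop was not tested.

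The transcription factor gene Stat92E (FBgn0016917, 3R, 20535323 to 20552311) had the smallest range of the 10 members, 1.48-fold from its lowest to its highest library. Stat92E was at 133 and 132 CPM on glucose and 163 and 196 on galactose, and the 2 diets did not overlap. Its log2 fold change was 0.44 ± 0.24 (SE), a 1.36-fold higher mean on galactose, with an edgeR adjusted p of 0.639. Stat92E was opposite in sign to the Turandot genes, its level being higher in the galactose libraries where theirs were lower on average.

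The feedback inhibitor gene Socs36E, the usual transcript read as output of the pathway, had the smallest edgeR p of the 10 members. It ranked 381 of the 12529 genes by that p. By DESeq2 its unadjusted p of 0.0340 was larger than those of TotM (0.0127), TotC (0.0142) and TotA (0.0320). Socs36E (FBgn0041184, 2L, 18138675 to 18152417) had 1230 and 1192 counts in the glucose libraries and 755 and 640 in the galactose libraries, or 47.9, 55.2, 31.3 and 28.8 CPM. The libraries of a diet lay close together, 1.152-fold apart on glucose and 1.09-fold on galactose, and the diets did not overlap. The means were 51.6 ± 5.15 CPM (SD, n = 2) and 30.0 ± 1.82, a 1.72-fold lower mean on galactose. The log2 fold change was -0.78 ± 0.25 (SE), with an edgeR unadjusted p of 0.0186 and an edgeR Benjamini-Hochberg adjusted p of 0.582. Its size thus exceeded the spread between libraries of a diet, while over all genes it did not pass.

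**Figure D2:**
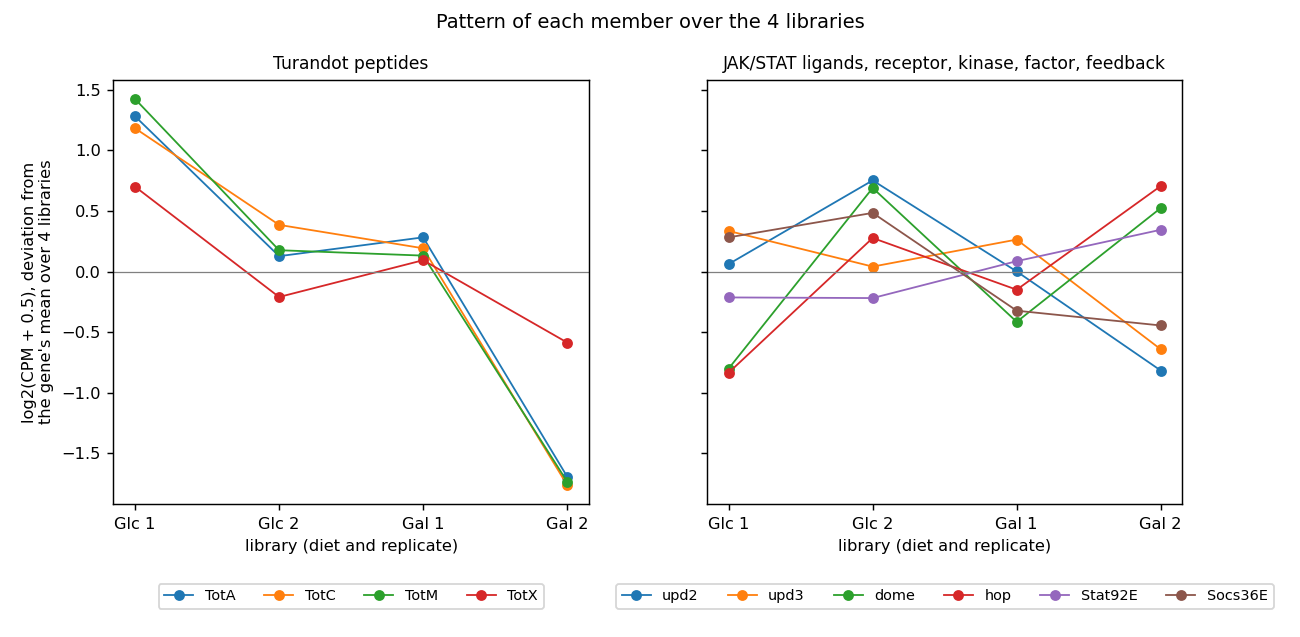
Deviation of log2(CPM + 0.5) from each gene's mean over the 4 libraries (vertical axis), for the 4 Turandot members (left) and the 6 JAK/STAT members (right), by library; lines only join the points of a gene, since replicates have no order. TotA, TotC and TotM overlie each other, with a median Turandot deviation of 1.23 in glucose replicate 1 and -1.71 in galactose replicate 2, while the JAK/STAT genes cross.

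The Turandot sum and Socs36E ordered the glucose libraries differently and the galactose libraries alike. Glucose replicate 2 had the highest Socs36E level, 1.15-fold above glucose replicate 1, whereas the Turandot sum was highest in glucose replicate 1. Both were lowest in galactose replicate 2 and higher in each glucose library than in either galactose library. For the sum the nearest libraries, glucose replicate 2 and galactose replicate 1, were at 144.4 and 141.7 CPM. The summed Turandot CPM was 5.98 and 2.61 times the Socs36E CPM on glucose and 4.52 and 1.28 times on galactose, so the ratio overlapped between diets. Glucose replicate 2 and galactose replicate 1 had median deviations of 0.15 and 0.16 over the 4 Turandot genes. Of these libraries, glucose replicate 2 was the higher for TotC, TotM and the Turandot sum, and galactose replicate 1 for TotA and TotX. The Turandot transcripts thus gave no single order of them.

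Other regulators of the pathway had values in both directions. Of 7 feedback and negative regulators, Socs36E included, 0 were called by edgeR or DESeq2, 2 had negative and 5 positive log2 fold changes, and the median was 0.22. Socs16D, another gene of the suppressor of cytokine signalling family, was at 68.5, 72.5, 96.6 and 136 CPM in the order glucose 1, glucose 2, galactose 1, galactose 2. It did not overlap between diets and was opposite in sign to Socs36E, with a log2 fold change of 0.72 ± 0.27 (SE) and an edgeR adjusted p of 0.591. The short receptor gene eye transformer (et), whose product binds Domeless and dampens the signal, was at 8.42, 12.1, 6.43 and 4.72 CPM, a log2 fold change of -0.88 ± 0.38.

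Of the 9 genes listed as responsive to JAK/STAT, 8 were tested, and 5 of the 8 were lower in each galactose library than in either glucose library, beside 23.4% of all genes tested, and 1 was higher, beside 18.8%. Socs36E and dome are among the 9, and the median log2 fold change was -0.66. By edgeR 0 were called, and DESeq2, which called 0.685% of all genes, called Tep2, which encodes a thioester-containing protein of the hemolymph. Tep2 was at 85.8, 157, 51.0 and 31.6 CPM, with a log2 fold change of -1.56 ± 0.39 (SE), an edgeR adjusted p of 0.582 and a DESeq2 adjusted p of 0.0407. Diedel, which encodes a secreted protein that dampens Imd signalling, had 1022 and 202 counts on glucose and 86 and 7 on galactose. Its level was 39.8, 9.36, 3.57 and 0.315 CPM, a log2 fold change of -3.65 ± 1.07 (SE) with an edgeR adjusted p of 0.582 and a DESeq2 adjusted p of 0.476. Diedel thus differed between the 2 glucose libraries as well as between diets, and glucose replicate 1 was the highest library, as for the Turandot genes. The virus-induced gene vir-1 was at 391, 429, 252 and 151 CPM, a log2 fold change of -1.02 ± 0.31 and an edgeR adjusted p of 0.582.

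**Figure D3:**
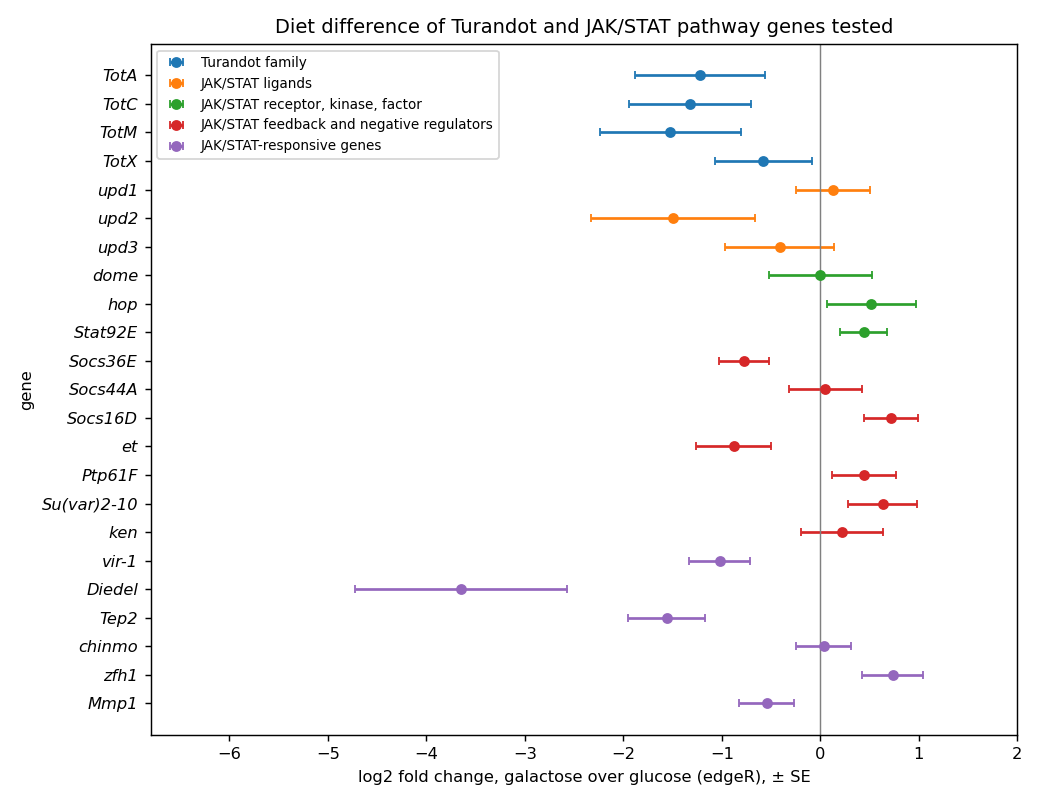
Log2 fold change, galactose over glucose, with its SE from edgeR (horizontal axis) for each tested gene of the Turandot and JAK/STAT lists (vertical axis), coloured by list, 2 libraries per diet. Diedel (-3.65), Tep2 (-1.56) and the 3 Turandot genes TotM, TotC and TotA lie farthest to the left with upd2 (-1.50), and Socs16D (0.72) and zfh1 (0.74) farthest to the right; 0 of these genes passed the edgeR test.

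Genes of the stress kinase and Imd routes that also feed TotA were examined as 2 further lists, the second of which also holds Toll genes. Of 16 stress MAP kinase genes 0 were called by edgeR or DESeq2, with 9 negative and 7 positive log2 fold changes and a median of -0.05. Mekk1, the kinase known to act upstream of TotA, was at 67.1, 150.4, 98.1 and 150.4 CPM and thus, like dome, higher in replicate 2 of each diet. The 3 genes of that list with the smallest p were slpr, lic and hep, kinases of the JNK and p38 routes, with log2 fold changes of 0.76, 0.54 and 0.53. Of 13 Imd and Toll genes 0 were called by either tool, with a median of 0.10. Of these 13, 5 were lower in each galactose library than in either glucose library (23.4% of all genes tested), and 2 higher (18.8%). The Imd receptor gene PGRP-LC was at 35.4, 48.3, 22.9 and 15.2 CPM (log2 fold change -1.14 ± 0.32 (SE)). The factor gene Relish (Rel) was at 150.3, 226, 123 and 94.1 CPM (-0.79 ± 0.30) and the receptor gene Toll (Tl) at 61.1, 93.9, 108 and 173 CPM (0.86 ± 0.34).

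Marker lists of the tissues that make these transcripts were set beside them. The 8 fat body markers, of which none was at 0 in every library, summed to 839 and 573 CPM on glucose and 684 and 619 on galactose, overlapping between diets. That sum was mostly apolpp (645, 389, 603 and 475 CPM). Of the 6 fat body markers tested, 2 were lower in both galactose libraries, beside 23.4% of all genes tested. They were Lsp1beta (33.7, 5.65, 5.27 and 4.67 CPM) and Gnmt (102, 96.7, 14.2 and 74.8 CPM). Glucose replicate 1 was the highest library for the fat body sum and for the 4 Turandot genes. The lowest library was glucose replicate 2 for that sum and galactose replicate 2 for the Turandot genes. The 7 hemocyte markers, none at 0 in every library, summed to 151 and 184 CPM on glucose and 145 and 95.0 on galactose, with galactose replicate 2 lowest, as for the Turandot genes, upd2 and upd3. Muscle and eye markers were also lower in both galactose libraries: the 5 matched of 6 muscle markers summed to 3737 and 5743 CPM on glucose and 3199 and 2328 on galactose, and the 6 eye markers to 5445 and 5191 and to 3669 and 2665. In the other direction, the 4 matched of 5 gut progenitor markers summed to 32.1 and 27.7 CPM on glucose and 51.8 and 75.5 on galactose. The sum was higher in both galactose libraries and was mostly Delta (29.1, 25.0, 48.9 and 72.3 CPM). The scarce spdo (0.19, 0.28, 0.58 and 0.54 CPM) was also higher in both. Sox100B (log2 fold change -0.14 ± 0.45 (SE)) and Sox21a (0.02 ± 0.56) overlapped between diets. The 5 enterocyte markers summed to between 7796 and 10234 CPM and the 4 Malpighian tubule markers to between 204 and 381 CPM, each overlapping between diets. No gut or tubule marker was at 0 in every library. The 9 male markers summed to 1339 CPM in glucose replicate 1 and to between 712 and 929 CPM in the others. The Turandot and JAK/STAT genes also differed in length, with 530 to 602 exonic bases for the 4 Turandot members and 1980 to 5210 for the 6 JAK/STAT members. The part of tissue content and of transcript length in these results was not tested.

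Other genes with the TotC pattern were looked for by the Euclidean distance between centred log2(CPM + 0.5) values over the 4 libraries, among 9420 other genes with a mean of at least 5 CPM. TotA and TotM were among the 3 nearest, at distances of 0.30 and 0.33. The nearest was CG42807 at 0.29, with 129, 85.5, 77.2 and 15.1 CPM, and the next were CG40472 (0.53), the antibacterial peptide gene AttD (0.54), lncRNA:CR32368 (0.65), Srg1 (0.75) and the maltase gene Mal-B1 (0.77). TotX was not among the 8 nearest and lay at 1.41 from TotC, and Socs36E at 1.68, upd3 at 1.45, upd2 at 1.52 and dome at 3.10. The genes nearest to upd3 were CG3348, CG8012, CG12643, RpL29 and Slob, at distances of 0.05 to 0.10. With 4 libraries such a ranking describes these libraries only.

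Single libraries decided the size of the Turandot difference. The median log2 fold change of the 4 genes was nearer 0 when galactose replicate 2 (-0.59) or glucose replicate 1 (-0.63) was left out, and farther from 0 when glucose replicate 2 (-1.67) or galactose replicate 1 (-2.66) was. edgeR called TotA, TotC and TotM when glucose replicate 2 was left out, a fit that called 147 of 12925 genes (1.14%), with adjusted p of 0.0043, 0.0044 and 0.00021. The lone glucose library is there assumed to vary like the galactose pair. edgeR called 0 members without any of the other 3 libraries. DESeq2 called TotA, TotC and TotM without galactose replicate 1, a fit that called 48 of 14112 genes (0.340%), with adjusted p of 0.0138, 0.00165 and 0.0232, the lone galactose library being assumed to vary like the glucose pair. It called 0 members without any of the others. TotX had a log2 fold change of 0.0053 without glucose replicate 1. Socs36E and Stat92E depended least on any library, with log2 fold changes of -0.91 to -0.67 and of 0.31 to 0.495.

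**Figure D4:**
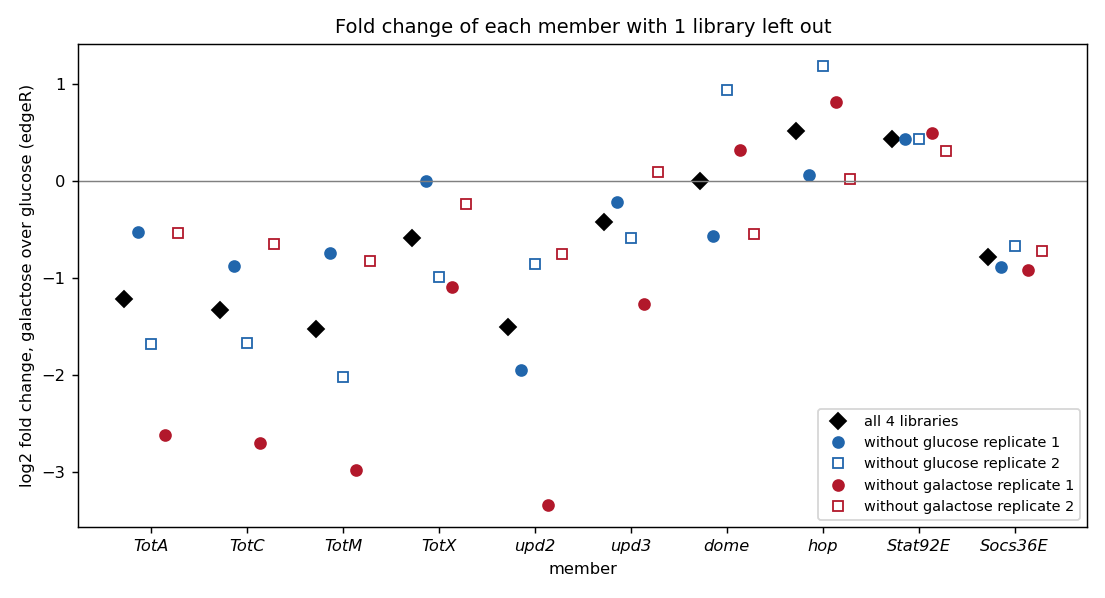
Log2 fold change, galactose over glucose, from edgeR (vertical axis) for each member (horizontal axis) with all 4 libraries and with each library left out. TotA, TotC and TotM range from -0.52 at the highest (TotA) to -2.97 at the lowest (TotM), and the 5 values of Socs36E lie between -0.91 and -0.67. Both signs are taken by dome, by upd3 (0.092 at the highest) and by TotX (0.0053 at the highest).

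In the authors' deposited table, whose log2 values are glucose over galactose and are given as deposited, the Turandot genes had 0.71 (TotA), 0.81 (TotC), 0.84 (TotM) and 0.33 (TotX), with the authors' adjusted p of 0.5001, 0.355, 0.347 and 0.838. These are smaller than the log2 ratios of the diet means in the authors' deposited table, which are 1.16, 1.27, 1.46 and 0.52 for the same genes, so they are not on the scale of the edgeR fold changes above. The authors' deposited table holds 0.58 for Socs36E, with an adjusted p of 0.504, and -0.40 for Stat92E, with 0.717. For upd2 the authors' deposited table gives no adjusted p. Of the 11679 genes with an adjusted p in the authors' deposited table, 87 (0.745%) lay under 0.05, and 0 of the 10 members were among them.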

How the data were processed

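Raw read counts per gene were deposited for 4 libraries of whole flies. The submitters' processing notes name build BDGP6 and the tools TopHat2 2.0.12, Bowtie2 2.2.3, DESeq2 and HTSeq 0.6.1, without roles. Whether counting used strand was not stated. A second deposited table holds the authors' own comparison, with a mean normalized read count per diet (a signal scaled across libraries), a log2 fold change of glucose over galactose, and a raw and an adjusted p-value, per the file headers.

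Of 17628 identifiers 17252 were named through the reference table, and all stayed in the tests. Coordinates and exonic lengths are from Ensembl release 115 (BDGP6.54), of the same assembly release. The main test was edgeR 4.0.16 (R 4.3.3), quasi-likelihood F test with TMM and filterByExpr (minimum count 10, minimum total count 15), adjusted by Benjamini-Hochberg over all 12529 genes, threshold 0.05; its SE is the log2 fold change over the root of F. Alternatives were DESeq2 1.42.0, limma-voom (limma 3.58.1), other scalings and filters, a block and leaving out libraries; DESeq2 with a block or without a library was added after seeing the data. Tests were checked on simulated counts. The members, the lists and the rule for named genes (every member, every Turandot gene, up to 3 genes per list with the smallest p, the nearest 8 genes to the most abundant Turandot gene and 5 to upd3) were chosen with earlier results of these data known. Genes added after their values were seen are osk, bcd, Mekk1, upd1 and zfh1. The other single genes named from the marker lists also fall outside that rule and were named with their values known.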

Additional observations from a re-analysis of the deposited data

How the results depend on the processing

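Over 17 alternatives, 151 of 169 member values kept their sign and, where an adjusted p was given, their side of the threshold. Another 9 passed it with the same sign (TotA, TotC and TotM, each in 3 fits) and 9 took the other sign. For upd2, DESeq2 gave no adjusted p with a replicate block or without glucose replicate 2. Genes called over the whole table were 0 by edgeR and limma-voom, 88 by DESeq2 and 131 by DESeq2 with a replicate block; without 1 library they ranged from 0 to 549 by edgeR (549 and 147 without glucose replicates 1 and 2, 0 without either galactose library) and were 328, 17, 48 and 22 by DESeq2 (without glucose replicates 1 and 2, then galactose replicates 1 and 2), and members called ranged from 0 to 3 with both tools. Log2 fold changes that took the other sign were those of dome with upper-quartile scaling (-0.10), with at least 1 CPM in 2 libraries (-0.00094), without glucose replicate 1 (-0.56; DESeq2 -0.61) and without galactose replicate 2 (-0.54; DESeq2 -0.55), of upd3 without galactose replicate 2 (0.092; DESeq2 0.097) and of TotX without glucose replicate 1 (0.0053); the cause was not tested. Leaving out 1 library in turn, edgeR gave from -0.56 to 0.94 for dome, from -1.26 to 0.092 for upd3 and from -1.08 to 0.0053 for TotX. Without 1 library the Turandot median ranged from -2.66 to -0.59 (DESeq2 -2.50 to -0.58) and the JAK/STAT median from -0.39 to -0.07 (DESeq2 -0.43 to 0.036). Upper-quartile scaling moved the median of all genes to -0.15, from -0.04. Deviations of same-numbered libraries correlated at 0.263 across 12529 genes, and 2 pairs cannot show that the numbers pair the libraries. With the replicate block edgeR called 0 genes and gave a Turandot median of -1.50 and 0.56 ± 0.18 (SE) for hop (adjusted p = 0.303), while DESeq2 with the block called 3 members, TotA, TotC and TotM, with adjusted p of 0.0147, 0.0137 and 0.0190. Depth limits upd2 and upd3, with at most 51 counts in a library.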
